A study of Mus musculus with 38 samples.

Results

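The apolipoprotein L genes of the mouse are followed here in skin in which Srsf2, which encodes a splicing factor of the SR family, had been deleted or carried the P95H mutation. The 7 genes Apol6, Apol7a, Apol8, Apol9a, Apol9b, Apol10a and Apol10b were taken by symbol from tables of 49585 genes. They were chosen by their measured differences between mutant and control whole skin, known from earlier results of these data, so their whole-skin levels are given as a description without a test. Tests of the members are given only in sorted cells. Of the 7 genes, 6 passed the filter on low values (10 or more on average across a table's libraries) in both whole-skin tables, 4 in sorted cells of the knockout set and 2 in sorted cells after DMBA/TPA. Apol10a was near the floor of every table.

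Apolipoprotein L proteins are named after a human member that circulates on high-density lipoprotein and lyses trypanosomes. Most other members lack a secretion signal and stay inside the cell, where they associate with membranes. Interferons induce many of the family's genes: type I and III interferons act largely through a DNA element called the interferon-stimulated response element (ISRE), and interferon gamma through the gamma-activated site (GAS). In mice, Apol9a and Apol9b are known as interferon-induced genes whose product restricts some viruses. Human APOL6 can promote cell death when it is overexpressed, and mouse Apol7c acts at phagosomes of dendritic cells.

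In the GENCODE M21 annotation (GRCm38) the 7 genes lie on chromosome 15 in a cluster with 5 further Apol genes, chr15:77044729-77757003, all protein coding. Apol6 is at the proximal end (chr15:77044729-77057106, plus strand) and is separated from the others by Rbfox2. The annotated span of the myoglobin gene Mb (chr15:77015487-77050670, minus strand) overlaps that of Apol6 on the other strand. Apol7a (chr15:77388219-77399110, minus strand) lies next to Apol9a (chr15:77403789-77411135, minus strand). Apol9b (chr15:77729039-77736382, plus strand) and Apol8 (chr15:77747798-77757003, minus strand) are at the distal end. Apol10a (chr15:77477047-77491069, plus strand) and Apol10b (chr15:77583819-77596125, minus strand) lie between them.

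Apol9a and Apol9b are near-copies. Their coding sequences were identical at 98.5% of 930 aligned bases, whereas those of Apol10a and Apol10b were identical at 73.6% and those of Apol7a and Apol8 at 60.9%. Of the 50-base stretches in Apol9b transcripts, 52.3% also occurred in Apol9a. The sources used here do not say how reads that match both genes were counted, so the split between the pair is uncertain and their sum is given beside each gene. Of the stretches of Apol7a, 15.5% occurred in other genes, 7.21% of all in Apol7b, and none of those of Apol8 did.

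The sequences at and before the RefSeq transcript starts are shown because some members carry the letters of an ISRE there and others do not. RefSeq windows (GRCm38.p6) from 250 bases before to 50 bases after each transcript start were searched on both strands for TTTCNNTTTC, an ISRE-type pattern whose reverse complement is GAAANNGAAA, and for TTCNNNGAA, a GAS-type pattern that is its own reverse complement. The ISRE-type pattern was in 3.44% of 32851 windows and the GAS-type pattern in 8.3%. The matches of 4 members follow with up to 25 bases on each side, 5′ to 3′ on the strand of the gene, with the ISRE-type match in capitals. In Apol9a and Apol9b it is made of 2 overlapping matches. The regions are chr15:77411099-77411164 (minus strand) for Apol9a, chr15:77729010-77729075 (plus strand) for Apol9b, chr15:77476971-77477030 (plus strand) for Apol10a and chr15:77596106-77596154 (minus strand) for Apol10b.
Apol9a: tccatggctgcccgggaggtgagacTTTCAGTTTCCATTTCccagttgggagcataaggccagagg
Apol9b: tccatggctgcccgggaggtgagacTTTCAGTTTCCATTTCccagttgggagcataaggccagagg
Apol10a: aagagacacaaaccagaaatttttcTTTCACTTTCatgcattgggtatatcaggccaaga
Apol10b: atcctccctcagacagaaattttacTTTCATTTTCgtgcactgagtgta

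The 250 bases before the more upstream starts of Apol9a and Apol9b shared a run of 228 identical bases that holds the match. The run reaches an edge of the searched bases in both genes, so the shared stretch may be longer. The match began 59 bases before the more upstream of the RefSeq starts of Apol9a, 37 bases before that of Apol9b, 51 bases before the start of Apol10a and 4 bases before that of Apol10b. The match of Apol10b thus crosses its start. The GENCODE starts of Apol9a (77411135) and Apol9b (77729039) differ from the RefSeq starts and lie within the match. Apol10a was the only member with a GAS-type match. Neither pattern was in the windows of Apol7a and Apol8, which says only that these letters are not in those windows. The 250 bases before the start are given for both, Apol7a at chr15:77399111-77399360 and Apol8 at chr15:77757011-77757260, both on the minus strand.
Apol7a: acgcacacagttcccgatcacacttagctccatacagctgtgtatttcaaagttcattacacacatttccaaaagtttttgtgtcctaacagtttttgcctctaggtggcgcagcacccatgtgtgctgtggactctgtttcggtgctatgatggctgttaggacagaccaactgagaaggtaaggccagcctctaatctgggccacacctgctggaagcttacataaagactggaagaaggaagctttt
Apol8: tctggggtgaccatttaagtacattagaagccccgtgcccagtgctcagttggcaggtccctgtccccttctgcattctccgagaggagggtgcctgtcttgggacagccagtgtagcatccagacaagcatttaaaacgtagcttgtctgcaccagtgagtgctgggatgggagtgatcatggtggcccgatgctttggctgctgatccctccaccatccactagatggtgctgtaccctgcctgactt

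The study sequenced total RNA of whole back skin in 26 libraries and of sorted reporter-positive skin cells in 12. In the P95H set, SRSF2-P95H mice were Krt14-CreER positive and controls Cre negative, the Srsf2 allele is listed as mutant for both, and all were tdTomato wild type. It holds 2 P95H and 5 control mice at 12 days of 4-hydroxytamoxifen and 4 P95H and 3 control mice at 28 days. The knockout set holds 3 Krt14-CreER-positive SRSF2-KO mice each at 4, 10 and 12 days and 3 Cre-negative controls at 10 to 12 days, with the Srsf2 allele listed as knockout for all and tdTomato wild type, heterozygous or homozygous from mouse to mouse. 4-hydroxytamoxifen was put on the back skin of all whole-skin mice, controls included. Sorted cells came from 3 SRSF2-KO and 3 control mice at 10 days of 4-hydroxytamoxifen, and from 3 SRSF2-P95H-het (heterozygous) and 3 control mice given 3 tamoxifen injections and DMBA/TPA, a carcinogen and promoter treatment of skin, with 20 weeks as the labelled time. Krt14-CreER is active in keratin 14 cells, that is in basal keratinocytes, whereas whole skin also holds dermal, muscle and immune cells. The sources used here give neither the number of P95H alleles in whole skin, nor the Cre status of sorted controls, nor the sex and age of the mice. Replicates are labelled as biological.

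Levels in whole skin are given in steps, the unit in which each library's values are whole multiples; an undetected gene sits at 1 step. Levels in sorted cells are the authors' normalised counts. Estimated depth was 7.37 to 32.2 M reads in the P95H skin set, 24.9 to 36.8 M in the knockout skin set, 45.9 to 92.8 M in sorted cells of the knockout set and 10.98 to 17.2 M after DMBA/TPA. P95H replicate 1 at 28 days was the shallowest library. Differences are on the scale of log2(level + 1), and folds are taken from them. Srsf2, the targeted gene, fell to a mean of 2973 normalised counts in sorted knockout cells, against 18780 in sorted control cells (limma, adjusted p = 0.043). In whole skin of knockout mice it was at 2450 to 2790 steps at 4 days, 2996 to 3687 at 10 days and 2303 to 2559 at 12 days. Controls were at 2879 to 2996 steps. It was below every control at 4 and 12 days, as were 13.4% and 10.8% of all genes tested. Srsf2 passed the test at no time (limma, adjusted p = 0.369 at 4, 0.286 at 10 and 0.164 at 12 days).

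Apol9a and Apol9b were low in control skin and at their highest in P95H skin at 28 days. Apol9a stood at 368, 118, 120 and 165 steps in the 4 P95H mice, against 10, 7 and 9 steps in the 3 controls of that day. Apol9b stood at 235, 64, 71 and 87 steps in P95H mice, against 10, 9 and 7 steps in controls. All 4 P95H libraries were above every control for both genes, and replicate 1 was the highest for each. The mean of Apol9a was 192.8 ± 118.8 steps in P95H and 8.67 ± 1.53 steps in control skin (SD, n = 4 and 3), a log2 difference of 4.17 ± 0.39 (SE) or 18.0-fold. The mean of Apol9b was 114.2 ± 81.1 steps in P95H and 8.67 ± 1.53 steps in control skin, a log2 difference of 3.37 ± 0.46 or 10.4-fold. Because undetected genes sit at 1 step, folds against such low control levels are understated. The sum of the pair was 307 steps in P95H and 17.3 steps in control skin, 14.8-fold. The estimated reads behind Apol9a were 156, 164, 155 and 193 in P95H mice, against 11.3, 12.0 and 10.7 in controls, so the higher steps of replicate 1 rest on about as many reads as those of the other mice. Without P95H replicate 1 the log2 differences were 3.80 for Apol9a and 2.96 for Apol9b.

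Apol7a and Apol8, which lack the ISRE-type letters in their windows, were also higher in P95H skin at 28 days. Apol7a stood at 357, 275, 238 and 293 steps in P95H mice, against 47, 42 and 59 steps in controls. Its log2 difference was 2.53 ± 0.18, or 5.79-fold, the smallest standard error among the members that were higher. Apol8 stood at 89, 47, 37 and 40 steps in P95H mice, against 18, 17 and 17 steps in controls. Its log2 difference was 1.48 ± 0.38, or 2.78-fold, and again replicate 1 was the highest. No P95H library of either gene overlapped the controls.

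Apol6 and Apol10b were not higher at 28 days. Apol6 stood at 204, 198, 238 and 220 steps in P95H mice, against 293, 282 and 231 steps in controls. The groups overlapped, and the log2 difference was -0.32 ± 0.18, which became 0.30 with the values as deposited. Apol10b stood at 17 to 25 steps in P95H mice, against 19 to 43 steps in controls. Its log2 difference was -0.33 ± 0.32, which became 0.26 with the values as deposited, so the direction of neither gene holds under both scalings. Apol10a was at 1 step, undetected, in all 14 libraries of the P95H set. Of the 6 members above the filter, 4 had every P95H library above every control and 0 had every one below; of the 18311 genes tested 14.5% and 14.1% did.

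**Figure D1:**
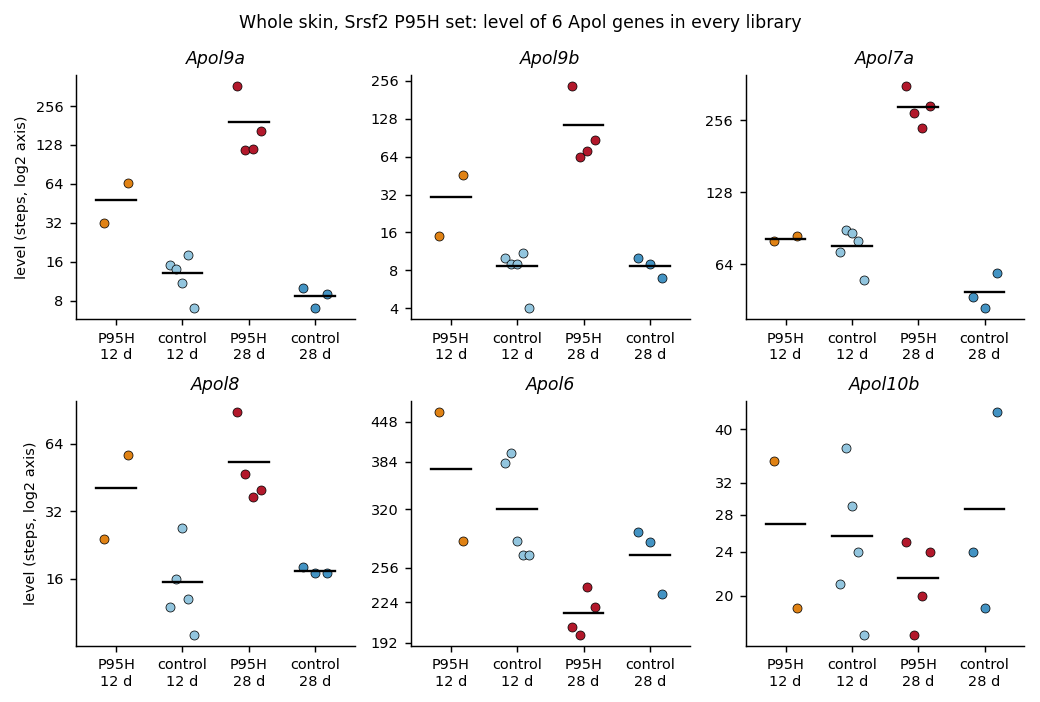
Level of 6 Apol genes in each library of the P95H set of whole skin, in steps on a log2 axis whose range differs between panels. Points are mice, lines are group means. The 4 P95H mice at 28 days lie above all controls for Apol9a, Apol9b, Apol7a and Apol8 and overlap them for Apol6 and Apol10b.

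At 12 days the pair Apol9a and Apol9b was already higher in P95H skin, while Apol7a was not. Apol9a stood at 32 and 65 steps in the 2 P95H mice, against 15, 14, 11, 18 and 7 steps in the 5 controls. Apol9b stood at 15 and 46 steps in P95H mice, against 10, 9, 9, 11 and 4 steps in controls. Both P95H libraries were above all controls, replicate 2 more than replicate 1. The log2 difference was 1.80 ± 0.43 for Apol9a, or 3.47-fold, and 1.58 ± 0.50 for Apol9b, or 2.98-fold. Each library weighs heavily here: the difference of Apol9b was 2.35 without P95H replicate 1 and 0.80 without P95H replicate 2.

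Apol7a overlapped between the genotypes at 12 days. It stood at 80 and 84 steps in P95H mice, against 72, 89, 87, 80 and 55 steps in controls, a log2 difference of 0.12 ± 0.20. Apol8 stood at 24 and 57 steps in P95H mice, against 12, 16, 27, 13 and 9 steps in controls. One control therefore overlapped the P95H group, and the log2 difference was 1.31 ± 0.41; it was 1.91 without P95H replicate 1 and 0.70 without P95H replicate 2. Apol6 stood at 465 and 283 steps in P95H mice, against 269 to 397 steps in controls, and Apol10b at 35 and 19 steps, against 17 to 37 steps. Of the 6 members, 2 had both P95H libraries above every control at 12 days and 0 had both below; of the genes tested 13.7% and 14.0% did.

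The P95H difference at 28 days minus that at 12 days, taken as a description, was 2.42 ± 0.27 for Apol7a, 2.37 ± 0.58 for Apol9a, 1.80 ± 0.68 for Apol9b, 0.17 ± 0.56 for Apol8, -0.52 ± 0.27 for Apol6 and -0.39 ± 0.47 for Apol10b on the log2 scale. Apol7a was thus higher at 28 days alone, and the difference of Apol8 was of like size on both days. The controls moved as well: Apol7a in control skin was lower at 28 than at 12 days by -0.62 ± 0.17, whereas Apol9b differed by 0.06 ± 0.44. The order of the members by level per kilobase of exon therefore differed with genotype. At 28 days it was Apol7a (96.0 steps per kb), Apol9b (62.7), Apol6 (47.8), Apol9a (32.4), Apol8 (18.0) and Apol10b (9.25) in P95H skin, against Apol6 (59.7 steps per kb), Apol7a (16.3), Apol10b (12.3), Apol8 (5.85), Apol9b (4.76) and Apol9a (1.46) in control skin. In P95H skin each neighbour in this order overlapped the next between mice, except Apol8 and Apol10b. In control skin only the neighbours Apol7a and Apol10b overlapped.

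**Figure D2:**
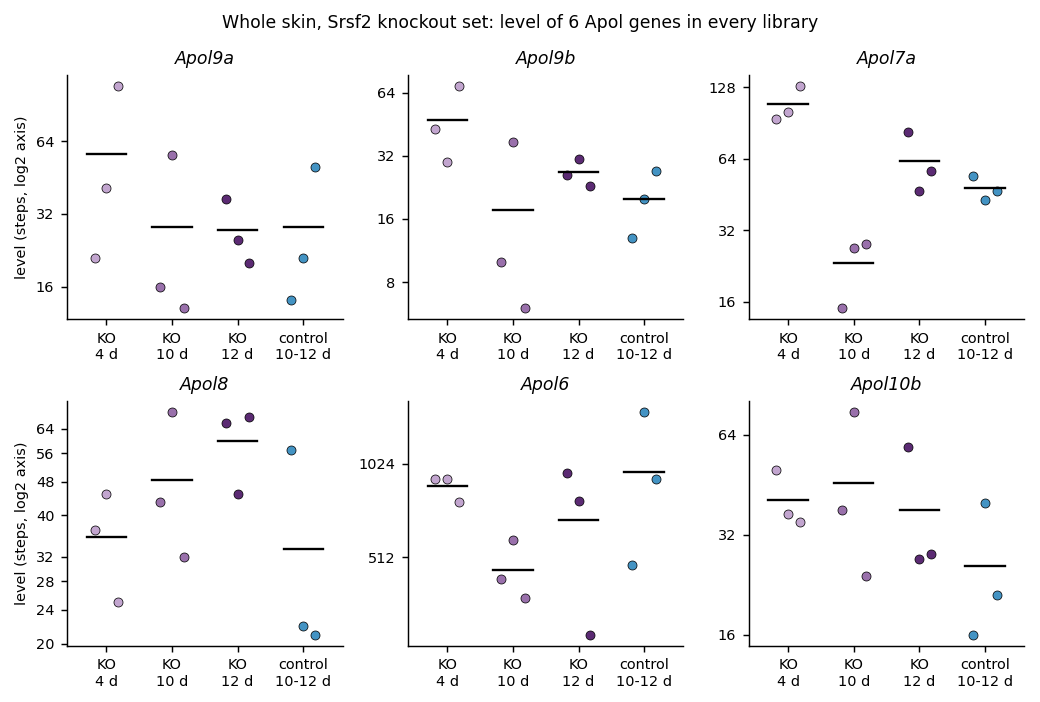
Level of 6 Apol genes in each library of the knockout set of whole skin, in steps on a log2 axis whose range differs between panels. Points are mice, lines are group means, and the 3 controls are shared by the 3 times. Apol7a lies above the controls at 4 days and below them at 10 days, and Apol9b lies above them at 4 days; the other groups overlap the controls.

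In knockout skin Apol7a and Apol9b were above every control at 4 days, Apol7a was below every control at 10 days, and the other members overlapped the controls at each time. The sum of Apol9a and Apol9b overlapped the controls at each time, also at 4 days. The 3 times share their 3 controls, of which replicates 1 and 2 were treated for 12 days and replicate 3 for 10 days. At 4 days the length of treatment and the genotype therefore cannot be told apart. At 10 days only control replicate 3 matches the length of treatment, and at 12 days only control replicates 1 and 2 do. The differences at these times therefore also hold some difference in length of treatment. Apol7a stood at 94, 101 and 130 steps at 4 days, 15, 27 and 28 steps at 10 days and 83, 47 and 57 steps at 12 days in knockout mice, against 54, 43 and 47 steps in controls. Apol7a was above every control at 4 days, below every control at 10 days and overlapped them at 12 days. The log2 differences were 1.15 ± 0.28, -1.05 ± 0.28 and 0.34 ± 0.28.

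Apol9b stood at 43, 30 and 69 steps at 4 days, 10, 37 and 6 steps at 10 days and 26, 31 and 23 steps at 12 days in knockout mice, against 13, 20 and 27 steps in controls. Its log2 differences were 1.18 ± 0.54, -0.50 ± 0.54 and 0.44 ± 0.54, and only at 4 days did the groups not overlap. Apol9a stood at 21, 41 and 109 steps at 4 days, 16, 56 and 13 steps at 10 days and 37, 25 and 20 steps at 12 days, against 14, 21 and 50 steps in controls. Its log2 differences were 0.86 ± 0.67, -0.10 ± 0.67 and 0.10 ± 0.67, with overlap each time. Without knockout replicate 3 the first was 0.25, and the last ran from -0.29 to 0.60 as each library was left out. The sum of the pair stood at 64, 71 and 178 steps at 4 days in knockout mice, against 27, 41 and 77 steps in controls. Its log2 differences were 1.06 ± 0.58, -0.28 ± 0.58 and 0.27 ± 0.58 at 4, 10 and 12 days, with overlap each time. At 10 days knockout replicate 2 held 93 steps of the pair together, against 26 and 19 steps in the other knockout mice.

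Apol8 stood at 37, 45 and 25 steps at 4 days, 43, 70 and 32 steps at 10 days and 66, 45 and 68 steps at 12 days in knockout mice, against 57, 22 and 21 steps in controls. Its log2 differences were 0.21 ± 0.41, 0.60 ± 0.41 and 0.95 ± 0.41, and every group overlapped the controls, of which replicate 1 was high. Apol6 had log2 differences of -0.01 ± 0.45, -0.93 ± 0.45 and -0.54 ± 0.45, with controls that ran from 483 to 1503 steps. Apol10b had log2 differences of 0.73 ± 0.45, 0.76 ± 0.45 and 0.56 ± 0.45, and some knockout mice lay within the controls' 16 to 40 steps at each time. Of the 6 members, 2 had every knockout library above every control at 4 days, 0 at 10 days and 0 at 12 days; of the 19450 genes tested 16.0%, 22.0% and 11.8% did. Below every control were 0, 1 (Apol7a) and 0 members, against 13.4%, 21.1% and 10.8% of genes.

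Set side by side at 12 days, the log2 difference of Apol9a was 1.80 ± 0.43 for P95H and 0.10 ± 0.67 for the knockout, and that of Apol9b 1.58 ± 0.50 and 0.44 ± 0.54. For the sum of the pair the values were 1.76 ± 0.45 and 0.27 ± 0.58. For Apol8 the values were 1.31 ± 0.41 and 0.95 ± 0.41, and for Apol7a 0.12 ± 0.20 and 0.34 ± 0.28. The sets were made with different library kits, normalised apart and have their own controls, so the difference between mutant and knockout was not tested. In the knockout set control replicates 1 and 2 were treated for 12 days and control replicate 3 for 10 days. The sum of the pair stood at 27, 41 and 77 steps in these controls in turn. In knockout mice at 12 days it stood at 63, 56 and 43 steps. These mice were above control replicates 1 and 2 for the sum and for Apol9b, while Apol9a overlapped them. The SEs of the pair in the knockout set are too wide to call its differences absent.

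**Figure D3:**
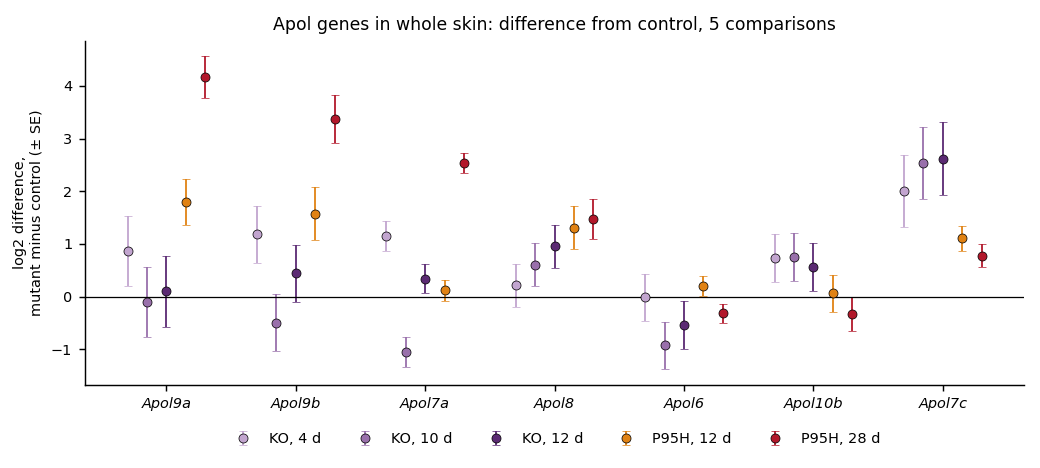
Log2 difference from control with its SE for 6 members and for Apol7c in the 5 whole-skin comparisons. Apol9a and Apol9b reach 4.17 and 3.37 in P95H skin at 28 days, while Apol7c is highest in knockout skin, at 2.0 to 2.62.

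Among the Apol genes outside the 7, Apol7c alone was above the filter in whole skin, and its differences were larger in knockout than in P95H skin, a contrast that was not tested. It stood at 93, 61 and 75 steps at 4 days, 88, 409 and 36 steps at 10 days and 112, 159 and 87 steps at 12 days in knockout mice, against 10, 25 and 23 steps in controls. The log2 differences were 2.0 ± 0.69, 2.54 ± 0.69 and 2.62 ± 0.69, with no overlap at any time. In P95H skin it stood at 88 and 74 steps at 12 days, against 28 to 42 steps in controls, and at 52 to 80 steps at 28 days, against 27 to 49 steps in controls. Its window holds the ISRE-type pattern. Apol7c was singled out after its values were seen.

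The interferon-stimulated genes, a list of 35 genes outside the Apol family, were tested in the same fits because Apol9a and Apol9b are known members of that response. The list was written with results of these data known. In P95H skin at 28 days 27 of the 35 rose and 0 fell (limma, adjusted p under 0.05), with a median log2 difference of 1.23, against -0.01 for all genes tested; 6.7% of all genes rose and 5.46% fell. Isg15, which encodes a ubiquitin-like protein, averaged 293.8 ± 204.0 steps in P95H and 12.0 ± 5.3 steps in control skin (SD, n = 4 and 3; limma, adjusted p = 3.56e-05). Oas1a, an antiviral 2′-5′ oligoadenylate synthetase, averaged 232.5 steps in P95H and 42.0 steps in control skin (adjusted p = 8.91e-05). Irf9, a transcription factor of the interferon response, averaged 1147 steps in P95H and 542 steps in control skin (adjusted p = 9.54e-05). Of 21 interferon-gamma-type genes tested, 17 rose and 0 fell, among them Cxcl10 and Cxcl9, which encode T cell chemokines, at log2 differences of 3.71 and 2.69. Of 9 interferon ligands, receptors and kinases tested, 0 rose and 0 fell (limma); 2 had an unadjusted p under 0.05. In P95H skin at 12 days 1 of the 9 fell, Ifnlr1, a receptor chain for type III interferons (-0.40 ± 0.09). In knockout skin 4 of the 9 rose at 4 days, the receptor chains Ifnar1, Ifnar2, Ifngr2 and Il10rb (0.36 to 0.88), 2 fell at 10 days, the receptor chain Ifngr1 and the kinase Jak1 (-0.71 and -0.47), and 0 changed at 12 days (limma; 2 at an unadjusted p under 0.05).

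At 12 days in P95H skin 5 of the 35 interferon-stimulated genes rose and 0 fell, with a median of 0.79; 3.96% of all genes rose and 2.97% fell. They included Oas1a (adjusted p = 0.00575), Ifit1, which encodes a protein that binds viral RNA (0.0102), and Isg15 (0.0108). Without P95H replicate 2 the count was 0. In knockout skin 11 of the 35 rose at 4 days, with a median of 0.95, and 0 fell, while 7.21% of all genes rose and 4.12% fell. At 10 days 0 rose and 2 fell (Slfn5 and Cmpk2), while 13.3% of all genes rose and 11.9% fell. At 12 days 0 rose and 0 fell (limma; 6 had an unadjusted p under 0.05), while 0.823% of all genes rose and 0.458% fell. Mx1, an antiviral GTPase, averaged 594.7 steps at 4 days in knockout and 257 steps in control skin (limma, adjusted p = 0.00774). The knockout counts rest on single libraries. At 4 days the count was 1 without knockout replicate 3, 6 without knockout replicate 1, 17 without knockout replicate 2 and 3 without control replicate 1. At 10 days it was 8 without knockout replicate 2, 4 without control replicate 1, 0 without control replicate 2, and 1 without knockout replicate 1, knockout replicate 3 or control replicate 3.

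Across libraries the members differed in how they followed the mean of the 35 interferon-stimulated genes. Over the 14 libraries of the P95H set Pearson's r was 0.96 for Apol9a, 0.94 for Apol9b, 0.90 for Apol8, 0.87 for Apol7a, -0.06 for Apol10b and -0.36 for Apol6. Over the 12 libraries of the knockout set it was 0.93 for Apol9b, 0.86 for Apol7a, 0.75 for Apol9a, 0.46 for Apol6, 0.29 for Apol10b and -0.19 for Apol8. These values hold differences between groups. After each group's mean was removed, r in the P95H set was 0.90 for Apol9a, 0.87 for Apol9b, 0.81 for Apol7a, 0.76 for Apol8, 0.42 for Apol10b and -0.11 for Apol6. In the knockout set it was then 0.90 for Apol9b, 0.84 for Apol9a, 0.47 for Apol10b, 0.42 for Apol7a, 0.27 for Apol6 and -0.19 for Apol8. Without the 2 libraries farthest from the median of the list, r over all groups was 0.93 and 0.50 for Apol9a, 0.88 and 0.90 for Apol9b, 0.78 and 0.73 for Apol7a, 0.84 and 0.07 for Apol8, -0.11 and 0.50 for Apol10b, and -0.05 and 0.45 for Apol6 in the P95H and knockout sets. Group means were kept in those last values, so the r within groups was not checked without single libraries. In the P95H set replicate 1 at 28 days had a list mean of 8.97, against 7.89 to 8.15 in the other mice of its group. Values of 1 library share its depth and cell makeup, and no p is given.

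**Figure D4:**
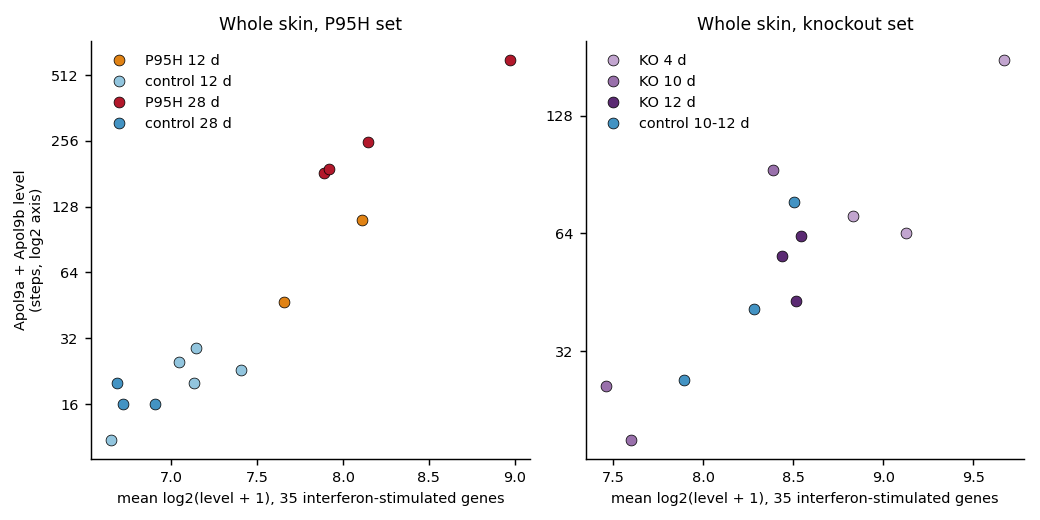
Summed level of Apol9a and Apol9b (steps, log2 axis) against the mean log2(level + 1) of 35 interferon-stimulated genes, 1 point per library, for the P95H set (left) and the knockout set (right) of whole skin. The highest point on both axes is P95H replicate 1 at 28 days on the left (603 steps) and knockout replicate 3 at 4 days on the right (178 steps).

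The genes whose pattern was most like each member's were ranked among 14533 genes by the smaller of the r values in the knockout set (12 libraries) and the P95H set (14 libraries). They were Ifi35 (0.96), Parp12 (0.93) and Xaf1 (0.93) for Apol9b, and Bst2 (0.87), Isg15 (0.85) and Psme1 (0.82) for Apol9a. For Apol7a they were Parp9 (0.89), Dtx3l (0.88) and Ifih1 (0.88). For Apol8 they were Lce1k (0.88), Calm4 (0.87) and Slc3a1 (0.86), of which Lce1k encodes a late cornified envelope protein of the upper epidermis. For Apol6 they were Sik2 (0.87), Lrg1 (0.86) and Slc1a5 (0.85). For Apol10b no gene passed 0.66, the value of Mtap7d3. Between members, Apol9a and Apol9b had r = 0.98 in the P95H set and 0.80 in the knockout set, without any account of reads that match both. Apol8 with Apol9b had 0.92 and -0.06.

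In whole skin, fewer cells of a type and less RNA per cell cannot be told apart, and lists of cell type markers moved beside the members. At 28 days the summed level of 10 macrophage markers was 15.7 to 20.7 k steps in P95H and 13.8 to 20.4 k steps in control skin, with all 10 detected and 0 changed (limma; median log2 difference 0.09). Suprabasal keratinocyte markers summed to 146 to 202 k steps in P95H and 90.1 to 117.5 k steps in control skin, and 3 of 6 rose. Dendritic and Langerhans cell markers summed to 1339 to 1526 steps in P95H and 969 to 1295 steps in control skin, and 2 of 8 rose. Neutrophil markers summed to 255 to 320 steps in P95H and 120 to 179 steps in control skin, with up to 3 of 6 undetected, and 1 of 2 tested rose. Of 6 basal keratinocyte markers 2 rose and 2 fell, of 7 T and NK cell markers 1 rose and 1 fell, and 1 of 5 sebocyte markers rose. At 12 days neutrophil markers summed to 278 to 419 steps in P95H and 120 to 144 steps in control skin, and both that were tested rose. Sebocyte markers summed to 13.4 to 16.7 k steps in P95H and 5.86 to 9.98 k steps in control skin at 12 days, and 3 of 5 rose. Of the other lists at 12 days 2 of 10 macrophage and 2 of 6 suprabasal markers rose, while of 7 T and NK cell markers 2 rose and 3 fell. Of 6 basal keratinocyte markers 1 rose and 1 fell. One further marker each rose among 8 dendritic and Langerhans cell and 7 fibroblast markers, and 1 of 6 skeletal muscle markers fell. At 4 days in knockout skin the macrophage markers summed to 102 to 190 k steps, against 38.8 to 60.5 k steps in controls, and all 10 rose. Fibroblast markers summed to 1478 to 3094 k steps, against 338 to 800 k steps in controls, and 6 of 7 rose. Of the other lists at 4 days 1 of 6 basal and 1 of 6 suprabasal keratinocyte markers fell, and 1 of 2 neutrophil markers tested rose. At 10 days the 7 hair matrix and shaft markers rose, with sums of 2118 to 2888 k steps in knockout and 1.45 to 98.0 k steps in control skin, 5 of 5 melanocyte markers rose, 7 of 7 endothelial markers fell and 4 of 6 skeletal muscle markers fell. Of 6 suprabasal keratinocyte markers 2 rose and 2 fell at 10 days. In each of 3 further lists 1 marker fell then: basal keratinocyte, dendritic and Langerhans cell, and T and NK cell. At 12 days in knockout skin 1 of 2 neutrophil markers tested rose, and no other list held a called gene. The part of these cell types in the levels of the Apol genes was not tested.

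Genes around the cluster were tested as well. Of 6 tested in P95H skin at 28 days, 2 rose: Eif3d, of a translation initiation factor, at a log2 difference of 0.46 ± 0.12, and Myh9, of non-muscle myosin, at 0.29 ± 0.08 (limma, adjusted p = 0.0199 and 0.0321). The median of the 6 was 0.21. In knockout skin Mb, the myoglobin gene of muscle, fell at 4 and 10 days (-0.80 and -1.13), Rbfox2 fell and Eif3d rose at 10 days, and 0 rose or fell at 12 days (limma; 0 at an unadjusted p under 0.05).

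Sorted reporter-positive cells held almost no Apol6 reads, although it had the highest level per kilobase of the members in control whole skin. Apol6 was at 0, 0 and 2.71 normalised counts in knockout cells, against 3.78, 1.35 and 5.99 in control cells, or at most 7 reads a library, whereas Srsf2 in the same control cells averaged 18780. In cells after DMBA/TPA it had 0 reads in all 3 P95H-het libraries and 1 read in 1 of 3 control libraries. The sorted cells held basal keratinocyte markers, with sums of 1095 to 2361 k normalised counts in knockout and 1104 to 1523 k in control cells. Macrophage markers summed to 171 to 547 normalised counts in knockout and 242 to 263 in control cells, with up to 8 of the 10 at 0. Other lists were low as well. Fibroblast markers summed to 235 to 1942 in knockout and 227 to 706.5 in control cells. Endothelial markers summed to 13.7 to 124.3 and 31.7 to 63.5, skeletal muscle markers to 81.3 to 123.3 and 66.85 to 87.75. Adipocyte markers summed to 20.55 to 62.53 and 13.51 to 46.14. Which cells hold Apol6 in whole skin was not tested. Apol10b was at 0.71 to 17.1 normalised counts in knockout and 0.68 to 10.3 in control cells, below the filter, and Apol10a had at most 1 read in any sorted library.

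Deletion of Srsf2 gave no detected change of the 4 members above the filter in sorted cells at 10 days. Apol7a was at 36.2, 192 and 134 normalised counts in knockout cells, against 112, 128 and 172 in control cells, a log2 difference of -0.46 ± 0.61 (limma, adjusted p = 0.707). It was 0.25 without knockout replicate 1 and -0.94 without knockout replicate 2. Apol8 was at 156, 106 and 163 normalised counts in knockout cells, against 110, 82.4 and 92.4 in control cells, a difference of 0.56 ± 0.33 (limma, adjusted p = 0.415). Replicate 2 of the knockout, in which 1 read was worth 3.42 normalised counts, against 0.68 to 0.90 in the other 5 libraries, was the only one of the 3 to overlap the controls of Apol8. Apol9a was at 71.8, 264 and 30.7 normalised counts in knockout cells, against 85.5, 49.97 and 53.0 in control cells, a difference of 0.45 ± 0.74 (limma, adjusted p = 0.768). Without knockout replicate 2 it was -0.37 and without replicate 3 1.16. Apol9b was at 55.4, 85.6 and 33.4 normalised counts in knockout cells, against 93.8, 46.6 and 42.8 in control cells, a difference of -0.08 ± 0.51 (limma, adjusted p = 0.951).

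By limma, edgeR and DESeq2 0 of these 4 members passed the threshold in sorted knockout cells, and 0 had an unadjusted p under 0.05 in limma. The test had little reach: limma called 7 of 17744 genes, 0.0394%, and in simulated data it found 33% of genes changed by 4-fold. The adjusted p values of Apol7a were 0.294 to 0.901 over the alternatives that leave out 1 library. Of 32 interferon-stimulated genes tested, 0 rose and 0 fell (2 at an unadjusted p under 0.05), with a median of -0.32.

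After DMBA/TPA neither member above the filter passed the test. Apol7a was at 25.9, 7.78 and 20.6 normalised counts in P95H-het cells, against 25.3, 26.0 and 34.5 in control cells, a log2 difference of -0.77 ± 0.41 (limma, adjusted p = 0.394). Apol8 was at 41.9, 40.7 and 41.1 normalised counts in P95H-het cells, against 33.3, 57.5 and 29.3 in control cells, a difference of 0.10 ± 0.27 (limma, adjusted p = 0.884). Apol9a was at 1.23, 6.05 and 15.4 normalised counts in P95H-het cells, against 9.31, 8.35 and 8.62 in control cells, from 1 to 18 reads a library and below the filter. Apol9b was at 14.8, 6.92 and 12.9 normalised counts in P95H-het cells, against 6.65, 11.1 and 6.89 in control cells. The groups overlapped for all 4 genes, and the sum of Apol9a and Apol9b differed by 0.09 ± 0.34.

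In these cells limma called 0 of 14914 genes, 0.0%, while edgeR called 1 and DESeq2 338; by none of the 3 was Apol7a or Apol8 called. In simulated data limma found 89% of genes changed by 4-fold here. Those genes were drawn from all genes tested, so the share for genes at the members' low levels was not estimated. Of 24 interferon-stimulated genes tested, 0 rose and 0 fell (4 at an unadjusted p under 0.05), with a median of -0.25. Of 20 interferon-gamma-type genes, 0 rose and 0 fell by limma, although 12 had an unadjusted p under 0.05 and the median was -0.55. Cell source, treatment and time differ between these cells and whole P95H skin at 28 days, and the levels of the sets were not compared.

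**Figure D5:**
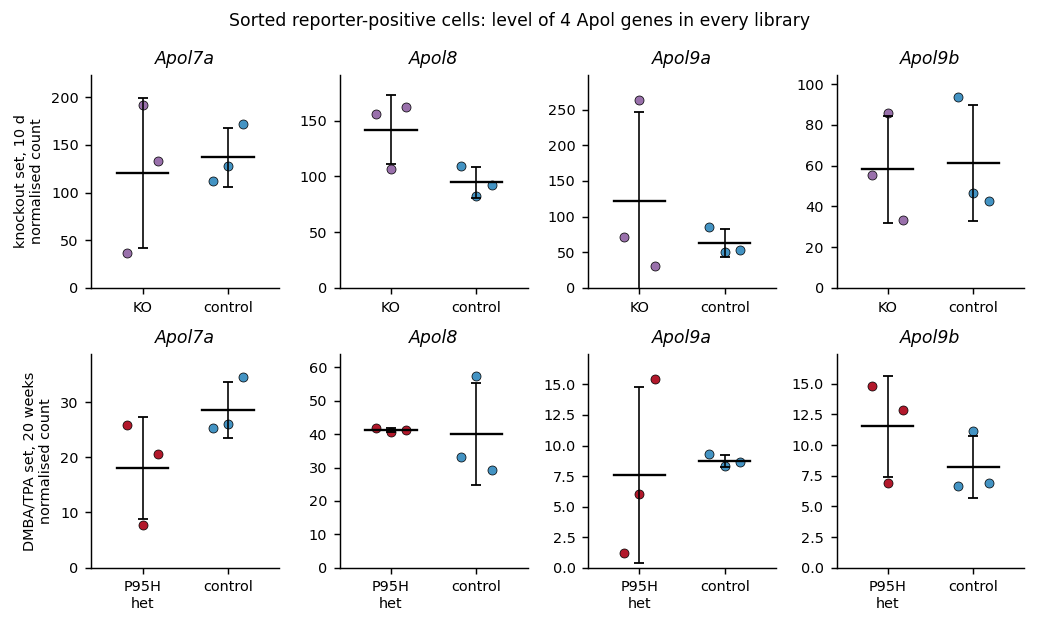
Normalised counts of Apol7a, Apol8, Apol9a and Apol9b in each library of sorted reporter-positive cells, knockout set (top) and DMBA/TPA set (bottom). Points are mice, lines are means and whiskers 1 SD, with the lower whisker of Apol9a in knockout cells ending at the axis. The groups overlap in every panel.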

How the data were processed

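RNA was isolated with Trizol, per the labels' protocols, and made into stranded total RNA libraries, with a different kit for the knockout than for the P95H mice. The submitters' processing notes name STAR, featureCounts and DESeq2. The sources used here give no versions, no genome build and no treatment of reads with several matches. The authors deposited 4 tables of a signal that is a normalised count per gene.

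Each whole-skin library held only multiples of its own smallest step (tolerance 0.0001, 100% of values). The multiples had like medians (median gene shift -0.02 to 0.02 log2), while the deposited values carried a further factor (-0.98 to 1.22 log2). Steps were analysed for whole skin, and the deposited values kept as an alternative. In sorted cells the deposited values were analysed, and whole reads recovered from them (100% of values whole) served edgeR and DESeq2. Reads in whole skin are estimates from the step size.

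With limma 3.58.1 (trend), each table had a single fit of log2(value + 1) over genes with a mean of at least 10, two-sided, with Benjamini-Hochberg adjustment over all genes tested and a threshold of 0.05. In simulated data it recovered 46% to 78% of 2-fold changes in whole skin, 3% in knockout sorted cells and 68% in DMBA/TPA cells. No library was a copy of another (lowest chi-square per degree of freedom 5.82). The other tools were matplotlib 3.10.9, numpy 2.4.6, pandas 2.3.3, python 3.11.15, R 4.3.3, edgeR 4.0.16 and DESeq2 1.42.0.

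The members, gene lists and cell type marker lists were chosen with earlier results of these data known. Named genes are the 7 members, the sum of Apol9a and Apol9b, Srsf2, the 3 genes most like each member, and up to 4 called genes of smallest p per list. Exon lengths and positions are from GENCODE M21 (GRCm38), which matched 49326 of 49585 identifiers without their version; sequences are from RefSeq windows (GRCm38.p6), with no window for Apol6.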

Additional observations from a re-analysis of the deposited data

Results flagged for a closer look

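In P95H skin at 28 days replicate 1 stood far above the other 3 mice for Apol9b, at 235 steps, with a gap of 0.87 of the range of the group, and for the sum of Apol9a and Apol9b, at 603 steps, with a gap of 0.83. It is also the shallowest library, at an estimated 7.37 M reads, and the mean of its interferon-stimulated genes was the highest of the table (8.97, against 7.89 to 8.15 in the other 3, on the log2 scale). Among the controls at 12 days replicate 5 was far below the others for Apol9b, at 4 steps, or about 2.4 reads, with a gap of 0.71. Of 16 groups tested in this way chance alone would flag about 1 in 20. Apol7a in knockout skin moved one way in all 3 mice at 4 days and the other way in all 3 at 10 days relative to the shared controls, a difference of -2.20 on the log2 scale, which was not tested.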

How the results depend on the processing

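In P95H skin at 28 days the count of interferon-stimulated genes that rose (27) lay between 21 and 28 over the alternatives run, and the differences of Apol9a, Apol9b, Apol7a and Apol8 stayed positive, at 3.70 to 4.70, 2.93 to 3.91, 2.43 to 3.13 and 1.20 to 2.05. Apol6 turned to 0.30 with the values as deposited. Other counts of interferon-stimulated genes moved by over 1.5 times. With the values as deposited they were 4 in knockout skin at 4 days, 0 at 10 days and 1 in P95H skin at 12 days. With equal totals the count was 19 at 10 days, and with a fit on 2 groups only 8 in P95H skin at 12 days. Leaving out 1 library gave 1 to 17 (knockout, 4 days), 0 to 8 (knockout, 10 days) and 0 to 7 (P95H, 12 days). The cause was not tested.

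Replicate numbers were not taken to pair the mice, because in no comparison did every same-numbered pair have deviations that correlated above 0.1; in the sorted sets all pairs were positive and 2 of 3 passed that value. With the replicate number as a block the count in knockout skin at 4 days was 3, all genes called were 747 in P95H skin at 28 days against 2226 without it, and no member of the sorted sets was called. In both sorted sets each library correlated best with its own number (3 of 3). All genes called in sorted knockout cells numbered 410 without replicate 2, 3 by edgeR and 1256 by DESeq2, against 7; after DMBA/TPA they were 1 and 338 by these tools 73 with no filter and 113 with the block, against 0. Levels of a few reads, as of Apol9a after DMBA/TPA, are limited by depth.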
